A study of Mus musculus with 18 samples.

Results

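The related microRNAs (miRNAs) miR-204 and miR-211 were followed in mouse knee cartilage after a single joint injury, through their 3 mature strands in the deposited table: mmu-miR-204-5p, mmu-miR-204-3p and mmu-miR-211-5p. These members were taken by name from the 1412 mature miRNAs of the table. All 3 were present, and they were followed across all 5 treatment groups. Cartilage came from the femoral condyles of male C57bl6 mice, 12 weeks old at the start per the study's methods. A single 12 N load ruptured the anterior cruciate ligament (ACL) of the right knee. The injured right knee and the uninjured contralateral left knee were taken 1 day or 7 days later, with 3 libraries for each side and day, and 6 libraries came from naive mice that were not loaded. The treatment label puts the naive group at day 7, so both comparisons of day 1 cartilage with naive cartilage also differ in day. All groups shared strain, sex and genotype, and the injured and contralateral groups also shared the loading procedure with its anaesthesia and analgesia. Each library was made from pooled cartilage, of 2 mice at day 1 and 4 mice at day 7 per the study's methods, while the design text at deposition gives 4 mice for each sample. Naive libraries pooled 2 knees each from 6 mice, left and right apart, so they can share mice. The contralateral and injured knees of a day came from the same mice, but the labels tie no library to its pool, so the p-values rest on treating libraries as independent.

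A miRNA is a short RNA that guides a silencing complex to messenger RNAs, mostly through its seed, bases 2 to 8 from the 5′ end. A hairpin precursor is cut to a duplex, of which one strand (here the 5p arm) is usually kept as the guide and the other strand is mostly discarded. miR-204 and miR-211 lie in introns of the ion channel genes Trpm3 and Trpm1, and their 5p strands have the same seed. They are known as repressors of Runx2, the transcription factor that drives osteoblast differentiation and chondrocyte hypertrophy, and loss of both in mesenchymal progenitors of mice has been reported to lead to osteoarthritis. Neither Runx2 nor any other target was measured in these libraries, so the name chondroprotective is background and was not tested.

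The mature sequences show why the pair is counted as one family. They are given 5′ to 3′ from RefSeq (GRCm38.p6), with the seed in capitals.
mmu-miR-204-5p: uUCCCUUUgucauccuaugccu
mmu-miR-211-5p: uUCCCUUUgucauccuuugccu
mmu-miR-204-3p: gCUGGGAAggcaaagggacgu
Mature miR-204-5p is encoded at chr19:22750610-22750631 and miR-204-3p at chr19:22750649-22750669, both on the plus strand, in the hairpin gene Mir204 inside a Trpm3 intron on the same strand. miR-211-5p is encoded at chr7:64205831-64205852 on the plus strand, in Mir211 inside a Trpm1 intron on the same strand. Counted from 1 at the 5′ end of miR-204-5p, the 2 guide strands of 22 bases differ at 1 base, A17U, which is outside the seed. miR-204-3p has another seed, CUGGGAA. In RefSeq, 1 further mouse miRNA has the seed UCCCUUU, miR-7670-3p, with 25 counts over all 18 libraries. The study's methods name the nf-core small RNA-Seq pipeline, at its defaults apart from listed flags. How that pipeline assigned a read that matches both guide strands within the permitted mismatches is not stated in the sources used here. Counts of miR-211-5p are uncertain to that extent.

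The levels of the 3 strands differed widely. miR-204-5p had 4401 counts over the 18 libraries, with 83 to 408 in each, and ranked 162 of 1412 by its mean share of the counts. miR-204-3p had 99 counts, with 0 to 21 per library, and ranked 438. miR-211-5p had 50 counts, with 1 to 6 per library, and ranked 499. Adapter ligation depends on the sequence in small RNA libraries, so a ratio of counts between different miRNAs is not a ratio of molecules. The libraries held 758388 to 4088852 counts in total, and the shallowest, replicate 1 of the day 7 injured group, is the library in which miR-204-3p was listed at 0. There, 0 counts allow a level of up to 3.96 CPM (counts per 1000000 counts of the library), on a floor of 3 counts, which is above the mean of miR-204-3p in 4 of the 5 groups when those means are taken over libraries. Intervals and floors cover counting error only.

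**Figure D1:**
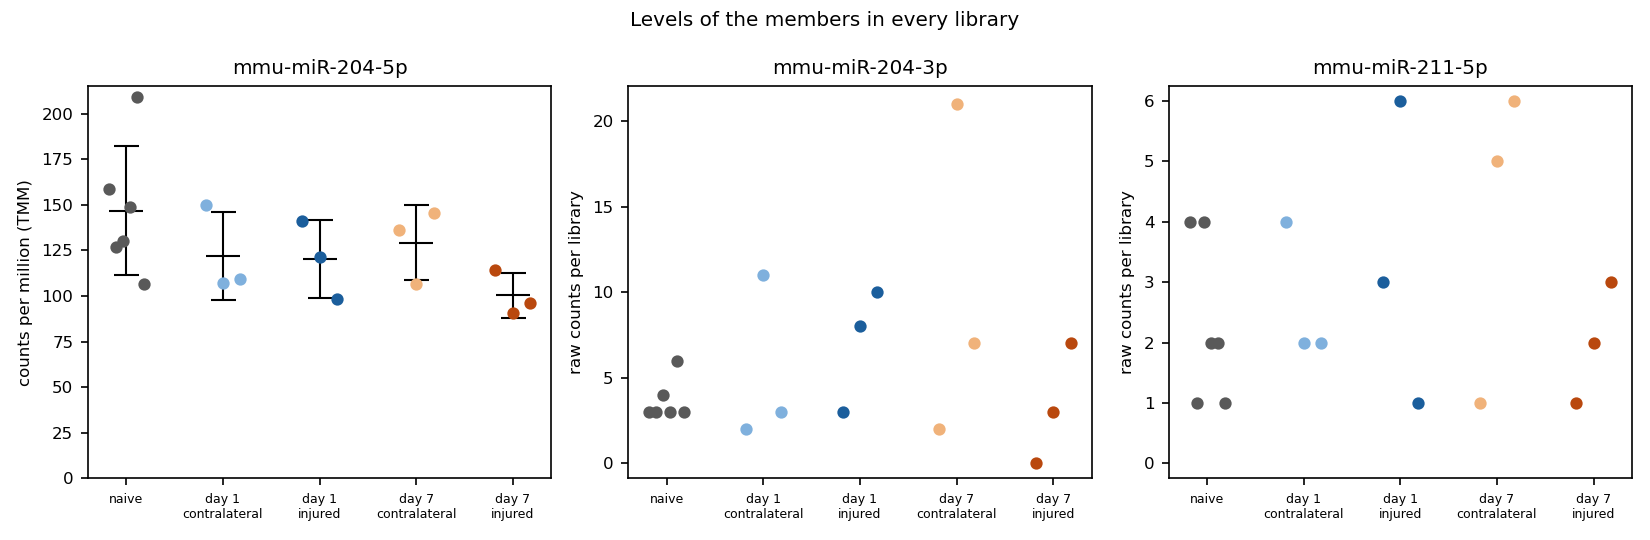
Levels of the 3 strands in every library. The left panel plots miR-204-5p in CPM on TMM-scaled library sizes, with the mean and SD of each group as bars, and the other panels plot raw counts of miR-204-3p and miR-211-5p, each point being 1 library of the 5 groups. miR-204-5p lies between 91.0 and 209 CPM, and the highest raw counts are 21 for miR-204-3p and 6 for miR-211-5p.

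In the naive libraries, miR-204-5p was at 159, 127, 130.3, 149, 209 and 107 CPM, on library sizes scaled by TMM, for replicates 1 to 6. The day 1 contralateral libraries were at 149.9, 107 and 109 CPM, and the day 1 injured libraries at 141, 121 and 98.1 CPM. The day 7 contralateral libraries were at 136, 106 and 146 CPM, and the day 7 injured libraries at 114, 91.0 and 96.0 CPM. Replicate 5 was the highest naive library, and 2 of the 3 day 7 injured libraries were below every naive library while the other was above 1 of them. In order of their means, the groups stood at 147 ± 35.5 CPM (SD, n = 6) in naive cartilage, 129 ± 20.4 (n = 3) in day 7 contralateral, 122 ± 24.2 (n = 3) in day 1 contralateral, 120.2 ± 21.5 (n = 3) in day 1 injured and 100.3 ± 12.1 (n = 3) in day 7 injured cartilage. Every neighbouring pair in that order overlapped, and none of these 4 differences passed the limma-voom test.

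The comparison of day 7 injured with naive cartilage sets injured against unloaded knees of the same labelled day. miR-204-5p was 1.44-fold lower in the day 7 injured libraries, a log2 fold change of -0.53 ± 0.23 (SE) with a 95% confidence interval of -1.01 to -0.05, and it did not pass the threshold (unadjusted p = 0.0327, limma-voom adjusted p = 0.138). In the same comparison 78 of the 428 miRNAs tested were called at an adjusted p under 0.05, or 18.2%, and neither arm of miR-204 was among them. Of these calls, 62 were higher and only 16 were lower. The median of all tested miRNAs was -0.0028. Sample quality weights in limma brought miR-204-5p past the threshold, at -0.54 with a limma-voom adjusted p of 0.0210. That fit called 135 miRNAs, 80 higher and 55 lower, while the other alternatives gave adjusted p between 0.110 and 0.510. Leaving out naive replicate 5 gave -0.38 (limma-voom adjusted p = 0.328). Scaling by library totals only gave -0.66, where the median of all miRNAs lay at -0.13.

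Markers of other tissues were read in the same comparison, in which 18.2% of all tested miRNAs were called, 62 higher and 16 lower. Of these lists, only the erythroid and leukocyte ones held a call. The 7 skeletal muscle miRNAs made up 9.15 to 18.3% of the counts in naive and 6.91 to 12.9% in day 7 injured libraries, and none of the 6 tested was called. The erythroid miRNAs made up 0.987 to 1.88% and 0.450 to 0.639%, without overlap, and 2 of 5 fell, miR-486a-5p and miR-486b-5p (both -1.22 ± 0.24, limma-voom adjusted p = 0.000673), whose values are the same and count as 1 measurement. The leukocyte miRNAs made up 0.345 to 0.70% and 0.421 to 0.493% (1 of 5 fell, miR-150-5p at -1.54 ± 0.36, adjusted p = 0.00317), and the vascular miRNAs 6.11 to 8.23% and 6.99 to 7.96% (0 of 4 called). The neural miRNAs, at 0.0680 to 0.158% and 0.0557 to 0.0776%, and those of sensory cells, at 0.0119 to 0.0155% and 0.0131 to 0.0183%, gave no call either, and no marker of any list was at 0 over all libraries. With the muscle miRNAs left out before scaling, miR-204-5p was at -0.47 (limma-voom adjusted p = 0.205). The part of the other lists in this difference was not tested. In pooled cartilage, fewer cells that make a miRNA and less of it per cell cannot be told apart.

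Against the contralateral knee of the same day, miR-204-5p was lower by a log2 fold change of -0.37 ± 0.26 (SE) in the day 7 injured libraries, with an interval of -0.92 to 0.19 (limma-voom adjusted p = 0.455). The knees share mice, and with no library tied to its pool they were compared as separate groups. These overlapped, since the lowest contralateral library, at 106 CPM, was below the highest injured one. In this comparison 63 of 428 miRNAs, or 14.7%, were called, 59 higher and 4 lower, without either miR-204 arm among them.

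One day after the injury no miRNA of the table was called, in either comparison. Against naive cartilage, 0 of 428 (0%) passed in limma-voom, edgeR and DESeq2, and 8 had an unadjusted p under 0.05. The log2 fold change of miR-204-5p was -0.27 ± 0.23 (SE; limma-voom adjusted p = 0.992). Between the knees of day 1, again 0 of 428 (0%) passed in the same tools, with 8 at an unadjusted p under 0.05. miR-204-5p differed by -0.02 ± 0.26 there, and its interval of -0.57 to 0.53 spans a fall and a rise of about the size seen at day 7 against naive.

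The uninjured knees of the loaded mice gave small differences as well. miR-204-5p was at -0.16 ± 0.23 (SE) in day 7 contralateral against naive cartilage (limma-voom adjusted p = 0.830) and at -0.25 ± 0.23 in day 1 contralateral against naive (adjusted p = 0.996). From day 1 to day 7, the contralateral knee differed by 0.09 ± 0.26 (adjusted p = 0.961). In these comparisons limma-voom and edgeR called 0 of 428 miRNAs each (0%). DESeq2 called 1, 0 and 2, and 23, 4 and 25 had an unadjusted p under 0.05 in limma-voom.

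From day 1 to day 7, the injured knee had a log2 fold change of -0.26 ± 0.27 (SE) for miR-204-5p (limma-voom adjusted p = 0.60). Here 67 miRNAs (15.7%) were called, 52 higher and 15 lower, a split that became 49 to 3 on library totals and 59 to 8 without the muscle miRNAs. The difference between the injury effects of the 2 days, injured minus contralateral at day 7 less the same at day 1, was -0.35 ± 0.37 (adjusted p = 0.768) for miR-204-5p, where 29 miRNAs (6.78%) were called. So no comparison of miR-204-5p passed the threshold in the 9 that were fitted, and its estimates were negative in all but the contralateral time comparison. The 9 reuse the same 5 groups, so these signs are not independent, and the estimate between the knees of day 1, at -0.02, was near 0.

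The miR-204-3p strand, which comes from the same hairpin, is best read from its raw counts. Naive libraries held 3, 3, 4, 3, 6 and 3 counts, for replicates 1 to 6. The day 1 contralateral libraries held 2, 11 and 3, the day 1 injured ones 3, 8 and 10. The day 7 contralateral libraries held 2, 21 and 7 counts, and the day 7 injured ones 0, 3 and 7. In raw counts the groups overlapped in every pair. Summed over libraries, this is 2.16 CPM on library totals in naive cartilage (exact Poisson 95% interval 1.35 to 3.27), 2.47 (1.41 to 4.01) in day 1 contralateral, 3.52 (2.18 to 5.38) in day 1 injured, 3.75 (2.53 to 5.35) in day 7 contralateral and 1.62 (0.777 to 2.98) in day 7 injured cartilage.

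miR-204-3p passed the filter on low counts only just, with 3 libraries over 4.83 CPM on library totals where 3 were needed (naive replicate 5, day 1 injured replicate 2 and day 7 contralateral replicate 2). Its log2 fold change was -0.71 ± 0.63 (SE) in day 7 injured against naive cartilage (limma-voom adjusted p = 0.510) and -1.30 ± 0.67 against the day 7 contralateral knee (adjusted p = 0.251). The day 1 injured libraries were at 0.74 ± 0.57 against naive (adjusted p = 0.992) and at 0.70 ± 0.65 against their contralateral knee (adjusted p = 0.997). Its largest estimates were the change of the injured knee from day 1 to day 7, -1.45 ± 0.68 (unadjusted p = 0.0459, limma-voom adjusted p = 0.174), and the difference between the injury effects of the 2 days, -2.0 ± 0.94 (unadjusted p = 0.0457, adjusted p = 0.288). The comparisons of the contralateral knees gave 0.60 ± 0.55, 0.05 ± 0.60 and 0.55 ± 0.64 (day 7 against naive, day 1 against naive and day 7 against day 1). Single libraries carried much of these estimates. Without day 7 injured replicate 1, the library at 0 counts, day 7 injured cartilage was at -0.07 against naive, at -0.71 against the contralateral knee and at -0.78 against day 1 injured. Without day 7 contralateral replicate 2, the difference between the knees of day 7 was -0.64, and that between the knees of day 1 ran from 0.20 to 1.24 as single libraries were left out. None passed the threshold, and the SE of this strand was 0.55 to 0.94, against 0.23 to 0.37 for the guide strand.

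**Figure D2:**
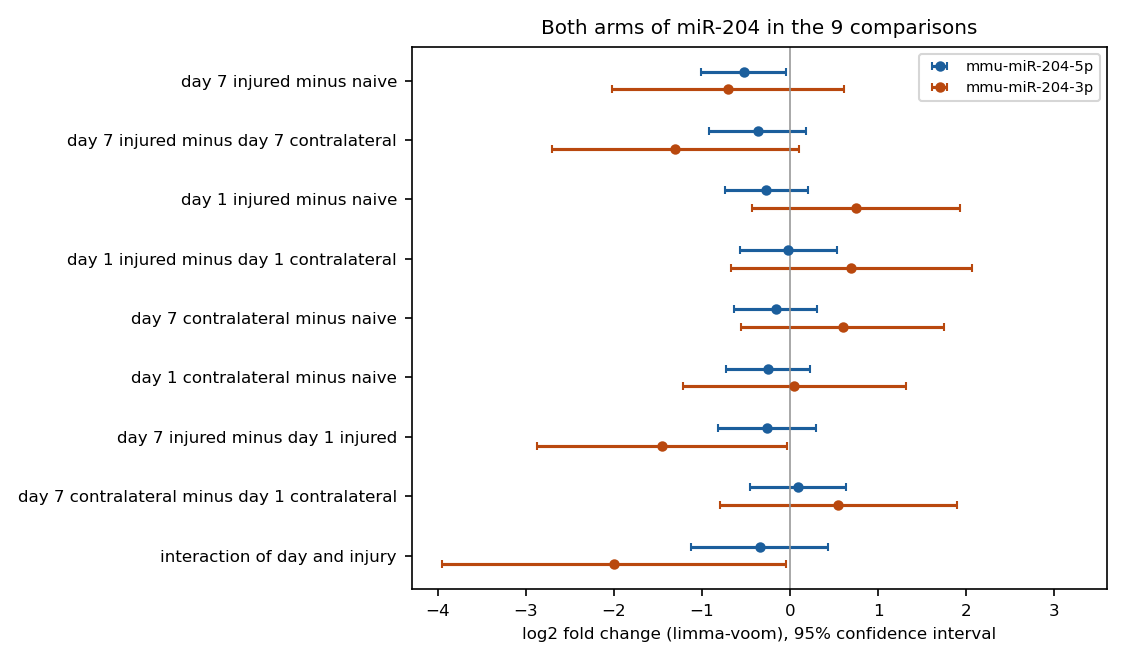
Log2 fold changes of both miR-204 arms in the 9 comparisons. Points are limma-voom estimates and bars their 95% confidence intervals, in blue for miR-204-5p and in orange for miR-204-3p, and the vertical line marks no difference. The interval of miR-204-5p leaves 0 out only in day 7 injured minus naive (-1.01 to -0.05), and no point passed an adjusted p of 0.05.

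Both arms are cut from the Mir204 hairpin (chr19:22750605-22750672, plus strand), shown 5′ to 3′ with miR-204-5p and miR-204-3p in capitals.
Mir204: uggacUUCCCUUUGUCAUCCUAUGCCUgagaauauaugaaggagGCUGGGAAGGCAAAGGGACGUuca
Within a library the ratio of both arms does not depend on the scaling. miR-204-5p exceeded miR-204-3p by 18.1-fold to 152-fold in the 17 libraries with counts of both, and by 44.5-fold over the summed counts. The mean log2 ratio, with 0.5 added to each count, was 5.92 ± 0.49 (SD, n = 6) in naive, 5.72 ± 1.13 (n = 3) in day 1 contralateral, 4.88 ± 1.21 (n = 3) in day 1 injured, 5.37 ± 1.04 (n = 3) in day 7 contralateral and 6.17 ± 1.09 (n = 3) in day 7 injured cartilage. The lowest ratios were in day 1 injured replicates 2 and 3 and day 7 contralateral replicate 2. The largest difference from naive was -1.05 in day 1 injured cartilage (exact permutation test, two-sided, p = 0.119, adjusted p = 0.789 over 8 comparisons), and the smallest adjusted p of the 8 was also 0.789. Of these designs, 6 libraries against 3 cannot go below p = 0.0238 and 3 against 3 cannot go below p = 0.1 in the exact permutation test. These floors are before adjustment over the 8 comparisons, so a lone comparison at its floor could not have passed the threshold.

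miR-211-5p, the near-identical guide strand of the other locus, was listed with counts in all 18 libraries, but with few of them. Naive libraries held 4, 1, 4, 2, 2 and 1 counts, for replicates 1 to 6. The day 1 libraries held 4, 2 and 2 (contralateral) and 3, 6 and 1 (injured), and the day 7 libraries 1, 5 and 6 (contralateral) and 1, 2 and 3 (injured). No group stood apart from another. The summed level was 1.37 CPM on library totals in naive cartilage (exact Poisson 95% interval 0.751 to 2.31), 1.24 (0.533 to 2.43) in day 1 contralateral, 1.68 (0.803 to 3.08) in day 1 injured, 1.5 (0.774 to 2.62) in day 7 contralateral and 0.972 (0.357 to 2.12) in day 7 injured cartilage.

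With 1 library over 4.83 CPM on library totals, miR-211-5p did not pass the filter and was tested apart from the others. Its mean was 1.09 ± 0.25 CPM (SD, n = 3) in day 7 injured and 1.40 ± 0.80 CPM (n = 6) in naive cartilage, a difference of -0.31 CPM (exact permutation test, two-sided, p = 0.571, adjusted p = 1 over 8 comparisons). The highest mean, 2.36 ± 2.37 CPM (n = 3) in day 1 injured cartilage, rested on replicate 2, whose 6 counts gave 5.03 CPM. Without that library the difference of day 1 injured from naive cartilage turned from 0.96 to -0.37 CPM. The other 7 comparisons had exact permutation p between 0.5 and 1 and an adjusted p of 1. In 4 of the 8 comparisons, with 3 libraries against 3, the exact test could not have passed the threshold whatever the depth. With 6 against 3 the smallest p was 0.0238 before adjustment over 8 comparisons, so a lone comparison at that floor could not have passed either. These tests could hardly have given a call.

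Of all counts of the 2 guide strands, miR-211-5p made up 1.123% over the 18 libraries (50 counts, exact binomial 95% interval 0.835 to 1.48%). The share per library ran from 0.348% in naive replicate 2 to 3.97% in day 1 injured replicate 2. By group it was 0.928% (0.508 to 1.55%) in naive, 1.04% (0.450 to 2.04%) in day 1 contralateral, 1.59% (0.767 to 2.91%) in day 1 injured, 1.24% (0.642 to 2.16%) in day 7 contralateral and 1.04% (0.381 to 2.24%) in day 7 injured cartilage. Each group interval holds the share over all libraries, and nearly all counts of the 2 guide strands stood under miR-204-5p in every group.

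**Figure D3:**
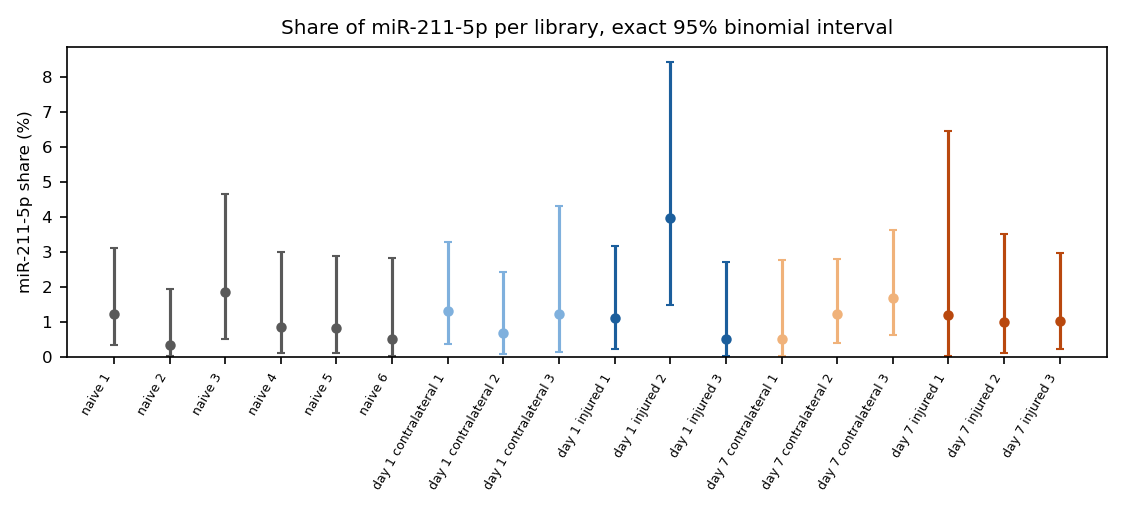
Share of miR-211-5p among the counts of miR-204-5p and miR-211-5p in each library, in percent. Points are libraries, coloured by group, and bars are exact 95% binomial intervals, which cover counting error only. Shares run from 0.348 to 3.97%, and the intervals overlap widely.

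Over the 18 libraries, taken as deviations of log2 CPM from the group means, miR-204-5p and miR-211-5p had Pearson r = 0.49 and Spearman rho = 0.53 (permutation within groups, two-sided, p = 0.0803 and 0.0632, adjusted p = 0.241 and 0.190 over 3 pairs). Without the 2 libraries farthest from the median of miR-204-5p (naive replicate 5 and day 7 injured replicate 2) r was 0.52. The 2 arms of miR-204 had r = -0.19 and rho = -0.30 (permutation p = 0.460 and 0.260, adjusted p = 0.663 and 0.390), and r = -0.61 without the same 2 libraries. miR-204-3p and miR-211-5p had r = 0.15 and rho = 0.11 (permutation p = 0.663 and 0.702, adjusted the same), and r = -0.01 without day 7 injured replicate 1 and day 1 injured replicate 2. None of the 3 relations passed the threshold, and the strands of few counts share the depth of their library. How reads were assigned between miR-204-5p and miR-211-5p is not stated, and its part in their relation was not tested.

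By level over all 18 libraries, the miRNAs most like miR-204-5p among the other 426 tested were miR-145a-5p, which is abundant in smooth muscle (r = 0.70, rho = 0.77), miR-3535 (r = 0.66, rho = 0.62) and miR-181c-5p (r = 0.63, rho = 0.68). Within groups, r was 0.59, 0.46 and 0.49. These are descriptions over libraries that share depth and composition. The 3 were picked by r over these same libraries, group differences included. Lower levels where miR-204-5p was lower are thus partly built in by the choice. In day 7 injured against naive cartilage, 18.2% of all tested miRNAs were called, 62 higher and 16 lower. miR-145a-5p was at -0.65 ± 0.26 (SE; limma-voom adjusted p = 0.0975) in that comparison. It was the only negative estimate among the 4 vascular miRNAs, whose median was 0.18. There, miR-181c-5p was at -0.55 ± 0.27 (adjusted p = 0.215), and miR-3535 fell, at -0.81 ± 0.23 (adjusted p = 0.0167). Against the day 7 contralateral knee miR-3535 was at -0.45 ± 0.27 (adjusted p = 0.337) and was not called. The miRNAs most like miR-204-3p were miR-185-3p (r = 0.71), miR-1947-5p (r = 0.70) and miR-130b-5p (r = 0.68), and r fell to 0.51, 0.65 and 0.56 without its 2 farthest libraries.

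**Figure D4:**
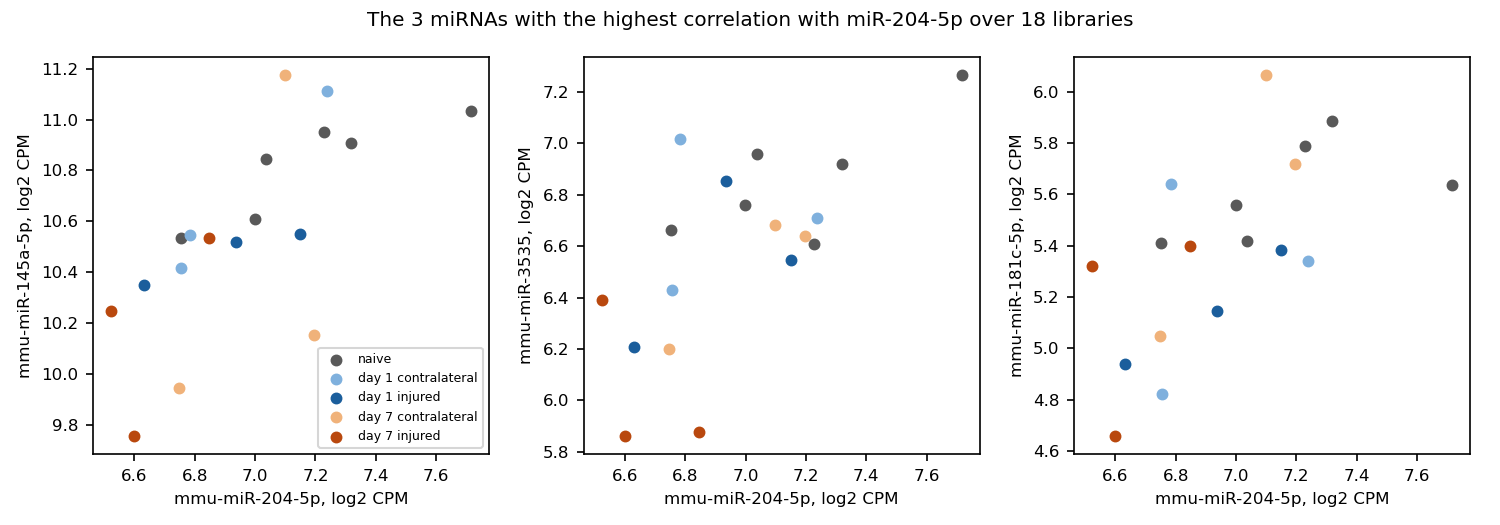
miR-204-5p against the 3 miRNAs with the highest Pearson r over 18 libraries. Each point is 1 library on log2 CPM axes with a prior count of 2, coloured by group. The 3 day 7 injured libraries lie toward the left of each panel, and naive replicate 5 is the point farthest to the right.

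Other miRNAs, 10 of them in the list used here, have been reported to repress Runx2 in osteogenic cells, and 7 of the 10 passed the filter. The list was chosen with earlier results of these data known, so its calls are not an independent look. In day 7 injured against naive cartilage, 1 of the 7 rose and none fell, beside 18.2% of all miRNAs called, 62 higher and 16 lower. The one that rose was miR-34c-5p, a member of the miR-34 family that p53 induces. It was at 25.2 to 54.3 CPM in the naive libraries and at 267, 280 and 361 CPM in the day 7 injured ones, without overlap, a log2 fold change of 2.86 ± 0.29 (SE; limma-voom adjusted p = 5.60e-07). Against the day 7 contralateral libraries, at 40.2 to 90.7 CPM, it rose by 2.27 ± 0.32 (adjusted p = 3.18e-05), and its injury effect differed between the days by 2.33 ± 0.47 (adjusted p = 0.00264).

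The other 6 of these miRNAs did not pass the threshold at day 7 against naive. miR-133a-3p, which is also a skeletal muscle miRNA, was at -0.95 ± 0.42 (SE; limma-voom adjusted p = 0.141), the lowest of the list, and miR-218-5p at 0.11 ± 0.53 the highest of the 6. miR-30c-5p was at -0.42 ± 0.26, miR-23a-3p at -0.29 ± 0.21, miR-135a-5p at -0.28 ± 0.44 and miR-338-3p at -0.06 ± 0.52. The median of the 7 was -0.28, against -0.0028 over all miRNAs tested, and 5 of the 7 were negative, as was miR-204-5p. With the median of all miRNAs that near 0, negative estimates are common, and a shared shift of the list was not tested. miR-137-3p, miR-205-5p and miR-217-5p had 3, 31 and 12 counts over all libraries and were not tested. In the remaining comparisons miR-34c-5p was called from day 1 to day 7 in the injured knee (2.64 ± 0.33, limma-voom adjusted p = 9.73e-06), and no other member of the list was called in any comparison. Shares called over all tested miRNAs were 14.7% between the knees of day 7, 15.7% in that time comparison and 6.78% between the injury effects. With 7 tested, 1 call in each of these does not set the list apart.

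The cartilage miRNAs were read as markers of the tissue. These 4 strands made up 0.586 to 1.116% of the counts in naive and 0.648 to 0.942% in day 7 injured libraries. In naive libraries the skeletal muscle list (9.15 to 18.3%) and the vascular list (6.11 to 8.23%) held more. The neural and sensory lists held less, and the erythroid and leukocyte ranges overlapped the cartilage range. Counts of different miRNAs do not compare as molecules, and the purity of the cartilage was not tested. miR-140-5p, which is enriched in chondrocytes, was at 4848 ± 1328 CPM (SD, n = 6) in naive and 5786 ± 1333 CPM (n = 3) in day 7 injured cartilage. All 4 strands of miR-140 and miR-455 were tested, and none was called in day 7 injured against naive, where miR-455-5p was at 0.60 ± 0.26 (SE; limma-voom adjusted p = 0.138), miR-140-5p at 0.29 ± 0.33, miR-455-3p at 0.10 ± 0.41 and miR-140-3p at -0.09 ± 0.19. From day 1 to day 7 of the injured knee, miR-455-5p rose by 1.01 ± 0.31 (adjusted p = 0.0277), the single call of this list in the 9 comparisons. Over all tested miRNAs, 18.2% were called at day 7 against naive and 15.7% from day 1 to day 7 of the injured knee. With 4 strands, these calls do not set the list apart.

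**Figure D5:**
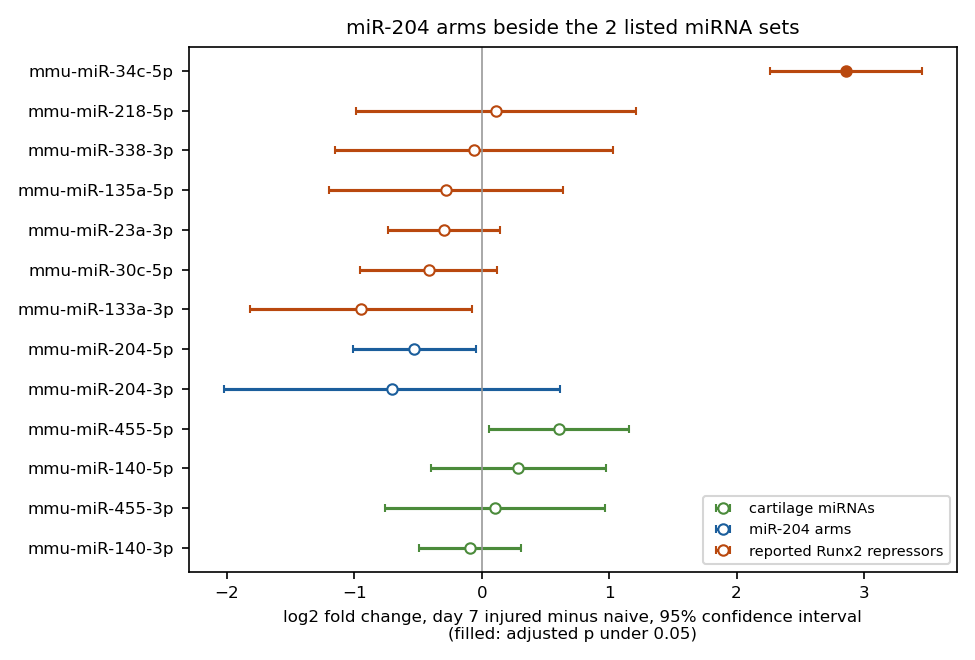
Log2 fold changes in day 7 injured minus naive cartilage for both miR-204 arms, the 7 tested miRNAs reported to repress Runx2 and the 4 cartilage strands. Points are limma-voom estimates with 95% confidence intervals, filled where the adjusted p was under 0.05. miR-34c-5p, at 2.86, is the only filled point, and miR-204-5p lies at -0.53 with miR-133a-3p, at -0.95, to its left.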

How the data were processed

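Small RNA libraries were prepared with the NEBNext kit from pooled cartilage. Per the study's methods and the submitters' processing notes, the authors trimmed reads with Trim Galore 0.6.6, aligned them to miRBase mature sequences with Bowtie 1.3.0 and counted with SAMtools 1.12 (genome setting GRCm38). The deposited values are raw read counts per mature miRNA, not normalised. Row names and sample titles have different prefixes, so each row was assigned by its library number alone, with no second identifier to check it. Groups came from the treatment labels, and replicate numbers, in accession order, pair no libraries. No 2 replicates held the same values, and all 27 replicate pairs differed by more than sampling noise.

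The members and lists were chosen with earlier results of these data known. In R 4.3.3, filterByExpr of edgeR 4.0.16 (minimum count 10, minimum total 15) kept 428 miRNAs, and limma 3.58.1 (voom on TMM sizes, 1 mean per group, eBayes) was fitted to all 18 libraries, with Benjamini-Hochberg adjustment within each of 9 comparisons and a threshold of 0.05. The study also modelled shared mouse pools, which the labels do not assign to libraries, so this term was left out. The code was tested on simulated data. DESeq2 1.42.0, edgeR, other scalings, filters and left-out libraries were alternatives. Single values were compared by exact permutation tests (scipy 1.17.1), and relations by 100000 permutations within groups. Named were all members, the 3 miRNAs most correlated with each tested member, and every tested strand of the Runx2 and cartilage lists. Totals of 758388 to 4088852 counts per library set the counting error only. The spread between replicates was larger than that and, with 3 to 6 libraries per group, also limits precision.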

Additional observations from a re-analysis of the deposited data

Results flagged for a closer look

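miR-204-3p in naive replicate 5 lay apart from the other naive libraries, at 5.12 CPM against 1.33 to 2.46 CPM in the other 5. Its gap to the nearest library was 0.703 of the range, above the critical value of 0.625 for 6 libraries. The value rests on 6 raw counts, against 3 or 4 in the others, in a library of 864123 counts, and the ratio of both arms in this library did not stand apart by the same measure (0.251 of the range). Of the 5 measures examined this way in the naive group it was the only one to exceed the limit, and chance passes it in about 1 of 20 groups.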

How the results depend on the processing

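The 18 log2 fold changes of the miR-204 arms gave 459 values under the alternatives, of which 439 kept direction and side of the threshold, though not always size. None of the 18 passed in the main fit, so keeping the side of the threshold says little. Many of these fits also left out a library of a group that was not compared. With single libraries left out, miR-204-3p ran from -1.08 to -0.07 in day 7 injured minus naive, from -1.73 to -0.64 between the knees of day 7, from -1.81 to -0.78 between the injured days and from 0.20 to 1.24 between the knees of day 1. Of the 459 values only 1 passed the threshold, miR-204-5p in day 7 injured minus naive with quality weights (-0.54, limma-voom adjusted p = 0.0210). Values near 0 changed sign. miR-204-5p in day 1 injured minus contralateral was 0.0076 with DESeq2 size factors, 0.0065 with every miRNA kept, 0.0020 in DESeq2 and 0.0034 with quality weights, and ran from -0.19 to 0.11 with single libraries left out. miR-204-3p in day 1 contralateral minus naive was -0.0094 with DESeq2 size factors, -0.020 on library totals and -0.0099 without muscle miRNAs, and ran from -0.50 to 0.51. miR-204-5p in day 7 minus day 1 injured ran from -0.29 to 0.0086. The cause was not tested.

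The number of miRNAs called in day 7 injured minus naive was 48 with 10 counts required in every library and 135 with quality weights, and from day 1 to day 7 in the injured knee 44 and 109. Against the day 7 contralateral knee the strict filter gave 38, from fewer miRNAs tested. DESeq2 called 1 in day 7 contralateral minus naive and 2 from day 1 to day 7 in the contralateral knee. miR-204-3p was left untested by the filter on low counts with 10 counts required in every library, in every fit of the groups compared alone, and without naive replicate 5.

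With a pseudocount of 1 the arm ratio in day 7 injured minus naive was -0.013, and with single libraries left out it ran from -0.37 to 0.69. The ratio ran from -1.03 to 0.0040 in day 7 contralateral minus naive, from -0.81 to 0.31 in day 1 contralateral minus naive and from -0.87 to 0.26 between the contralateral days. On library totals, miR-211-5p in day 7 contralateral minus naive was -0.17 CPM. Leaving out libraries for miR-211-5p was chosen after seeing the data. Its differences ran from -0.81 to 0.096 CPM between the knees of day 7, from -0.37 to 1.90 CPM in day 1 injured minus naive, from -0.32 to 1.95 CPM between the knees of day 1, from -0.40 to 0.50 CPM in day 7 contralateral minus naive, from -0.37 to 0.26 CPM in day 1 contralateral minus naive, from -2.20 to 0.065 CPM between the injured days and from -0.35 to 0.55 CPM between the contralateral days. The correlation of miR-204-3p with miR-211-5p was -0.014 without 2 libraries. No paired analysis was possible because the replicate numbers follow accession order and no label ties a library to its mice.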

Other observations

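Among mature miRNAs of the table whose RefSeq sequences have the same length and differ at 1 base, 16 pairs had at least 1000 counts for the higher partner. The lower partner held 0.388 to 49.3% of the counts of its pair, with a median of 20.2%. miR-211-5p, at 1.123% of its pair with miR-204-5p, was among the lowest 3, with miR-376c-5p beside miR-376b-5p (0.388%) and miR-29c-3p beside miR-29a-3p (0.951%). Pairs such as miR-10a-5p and miR-10b-5p were near an even split, at 49.3%. These are descriptions of counts summed over 18 libraries, some miRNAs stand in more than 1 pair, and how reads were assigned within a pair was not tested.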
